A study of Mus musculus with 6 samples.

Results

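The genes described here encode the calcium store of the muscle fibre, the sarcoplasmic reticulum. They are 10 of the 54532 genes in the deposited count table: the pump regulators Sln and Pln, the pumps Atp2a1 and Atp2a2, the luminal calcium-binding proteins Casq1, Casq2, Hrc and Srl, the release channel Ryr1 and the junction protein Jph1. They were found by gene name, and the set itself was chosen by the measured MP and Ctrl counts, since it was put together with those differences in view. Differences of its genes between MP and Ctrl are therefore a description and carry no p-value.

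RNA was sequenced from gastrocnemius, a mostly fast-twitch calf muscle, of C57BL/6J mice at an age of 3 months, in 3 libraries labelled MP and 3 labelled Ctrl. The genotype of MP is Mck cre with Tg Glut1-Hk2-Pfkfb3, a transgene named for a glucose carrier, a hexokinase and the enzyme that makes an activator of glycolysis. The genotype of Ctrl is Mck cre alone, so both groups carry the Cre driver, named for the muscle creatine kinase promoter that is active in striated muscle. Both groups drank water with 0.2% doxycycline, starting when the mice were 4 weeks old. Whether each library came from its own mouse is not stated in the labels, so errors and p-values reflect only how these samples vary, which may be technical.

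The library totals ran from 19546456 to 23381569 counts in MP and from 21796564 to 24665024 counts in Ctrl, and 14973 genes passed the filter on low counts. None of the genes that the transgene names passed the test as higher in MP: Pfkfb3 had 120, 476 and 542 CPM (counts scaled to library size) in the MP libraries and 579, 1096 and 1585 CPM in the Ctrl libraries, the opposite order to the label. Hk2 had 341, 168 and 182 CPM in MP and 156, 165 and 187 CPM in Ctrl, where only MP replicate 1 lay above Ctrl. Slc2a1 had 13.5, 9.60 and 8.05 CPM in MP and 12.8, 23.3 and 11.98 CPM in Ctrl, overlapping. Each direction below is therefore one between libraries labelled MP and libraries labelled Ctrl. The fibre markers Acta1, Ckm, Des, Mb and Myh4 were abundant in all 6 libraries, while the fast troponin C gene Tnnc2 had only 0.436 to 0.826 CPM in MP and 0.5005 to 0.614 CPM in Ctrl. Ctrl replicate 1 stood apart, with 477 CPM over 6 B cell genes and 70.2 CPM over 5 T cell genes. The other 5 libraries had at most 56.5 and 2.81 CPM.

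A muscle fibre contracts when Ryr1 opens and calcium leaves the reticulum, and relaxes when SERCA pumps, driven by ATP, return it. Calsequestrins hold the calcium inside the store next to the channel, and junctophilins tie the store to the surface membrane. Small single-pass membrane peptides bind the pumps and set their activity. Sarcolipin, from Sln, lets the pump split ATP with less calcium moved, and is known for its part in muscle heat production. In mouse it is found chiefly in heart atrium and in slow or oxidative skeletal muscle. Phospholamban, from Pln, serves heart and slow muscle, and myoregulin, from Mrln, is the abundant pump inhibitor of skeletal muscle.

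The reading frames of these peptides are shown because the results turn on which of them was transcribed. They are given 5′ to 3′ on the coding strand, from GENCODE transcripts of GRCm38, with the start and stop codons in capitals. The frame of Sln lies within 1 exon at chr9:53853473-53853568 (plus strand) and holds 31 codons before the stop. That of Pln lies at chr10:53343864-53344022 (plus strand) with 52 codons, and that of Mrln at chr10:70219496-70219636 (plus strand) with 46. Strit1, which the deposited table lists as Gm34302, encodes DWORF, a peptide that raises pump activity. Its frame of 34 codons is spliced from 2 exons between chr3:63481290-63483827 (minus strand).
Sln: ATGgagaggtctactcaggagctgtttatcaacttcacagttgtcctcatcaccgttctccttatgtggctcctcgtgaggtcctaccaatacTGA
Pln: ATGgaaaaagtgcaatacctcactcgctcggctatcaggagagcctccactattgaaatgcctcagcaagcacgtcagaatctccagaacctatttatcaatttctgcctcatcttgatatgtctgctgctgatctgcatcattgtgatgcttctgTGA
Mrln: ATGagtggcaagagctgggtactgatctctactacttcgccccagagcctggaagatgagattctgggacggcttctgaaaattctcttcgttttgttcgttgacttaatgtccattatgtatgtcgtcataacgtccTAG
Strit1: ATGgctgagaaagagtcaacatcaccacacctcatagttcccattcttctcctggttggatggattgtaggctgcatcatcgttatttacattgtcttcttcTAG

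Sln (ENSMUSG00000042045, chromosome 9, 53850164 to 53854560 on GRCm38, plus strand) was far higher in the libraries labelled MP. MP replicates 1, 2 and 3 had 486, 2289 and 2611 counts, against 44, 62 and 54 counts in Ctrl replicates 1, 2 and 3. Scaled for depth these were 20.1, 111 and 105 CPM in MP, against 1.84, 2.93 and 2.49 CPM in Ctrl. Every MP library lay above every Ctrl library, and within MP replicate 1 lay well below the other two. Its fitted log2 fold change, MP over Ctrl, was 5.02 ± 0.67 (SE, 95% interval 3.47 to 6.58), a fitted fold of 32.5. Without MP replicate 1 it was 5.50 ± 0.20 (SE), and over the fits that left out each library in turn it lay between 4.69 and 5.50. In edgeR's test over all genes Sln was the 1 member called of 9 tested, where 1.3% of all genes were called, 0.788% higher and 0.508% lower. Because Sln helped to choose the set, nothing is read from that count. Limma-voom, with a log2 fold change of 4.70, and limma on log2(FPKM + 1), with 4.10 on that scale, did not call Sln. Over all genes they called 144 and 96. Nor was Sln called by edgeR without MP replicate 2, MP replicate 3, Ctrl replicate 2 or Ctrl replicate 3. In that order, these edgeR fits called 1, 1, 3 and 0 of all 14973 genes.

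**Figure D1:**
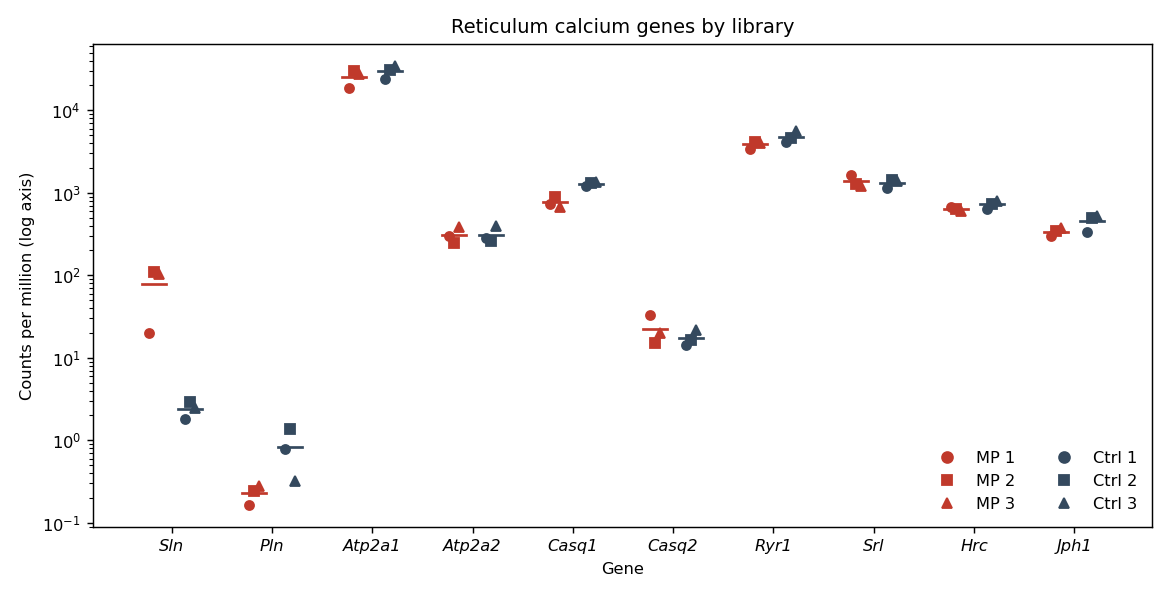
Levels of the 10 genes in CPM on a log axis, one point per library (shape gives the replicate number) and a bar at the mean of 3, with MP left of Ctrl. Sln stands at 20.1 to 111 CPM in MP and 1.84 to 2.93 CPM in Ctrl, Pln is the lowest gene in both groups, and the MP and Ctrl points of the other genes lie close together, Casq1 excepted.

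Measured per length, Sln moved through the rank order of all expressed genes. Its mean was 59.7 ± 38.7 FPKM in MP and 1.83 ± 0.422 FPKM in Ctrl (SD, n = 3 each), which ranked 637 in MP and 8915 in Ctrl among 14973 genes. In MP its range, 15.1 to 84.2 FPKM, took in those of the junction protein Jph1 (58.9 to 75.8 FPKM) and the slow-fibre pump Atp2a2 (40.9 to 63.1 FPKM). In Ctrl it lay at 1.38 to 2.22 FPKM, below Casq2 (5.16 to 8.01 FPKM) and above Pln (0.117 to 0.496 FPKM). Relative to the main pump, there were 2.86, 9.71 and 10.1 Sln FPKM per 1000 Atp2a1 FPKM in MP replicates 1, 2 and 3. In Ctrl replicates 1, 2 and 3 there were 0.202, 0.255 and 0.190. Even in MP, then, sarcolipin RNA stayed at a small fraction of pump RNA.

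Pln (ENSMUSG00000038583, chromosome 10, 53337667 to 53345987) was close to the limit of detection. It had 4, 5 and 7 counts in MP replicates 1, 2 and 3, and 19, 29 and 7 counts in Ctrl replicates 1, 2 and 3. These were 0.165, 0.242 and 0.280 CPM in MP and 0.792, 1.37 and 0.323 CPM in Ctrl, where 3 counts in a library are worth 0.120 to 0.145 CPM. Pln did not pass the filter on low counts and has no fold change. MP replicate 3 and Ctrl replicate 3 had the same count. Genes annotated on the opposite strand, Cep85l and Gm47644, cover 5.11% and 59.6% of its exonic bases, and whether reads were counted by strand is not given in the sources used here. These few counts are uncertain for that reason.

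The other pump peptides were taken from a list of 4 genes. Mrln (ENSMUSG00000019933, chromosome 10, 70204664 to 70219711) had 290, 592 and 651 counts in MP replicates 1, 2 and 3, against 950, 963 and 1037 in Ctrl replicates 1, 2 and 3. That is 11.98, 28.7 and 26.1 CPM in MP and 39.6, 45.5 and 47.8 CPM in Ctrl. All 3 MP libraries lay below all 3 Ctrl libraries, and MP replicate 1 was again the lowest of its group. On the log2 scale Mrln differed by -0.99 ± 0.30 (SE, 95% interval -1.69 to -0.30), which did not pass the threshold (edgeR adjusted p = 0.132). DESeq2 called it (adjusted p = 0.0259). Over all alternatives its adjusted p ran up to 0.320, and no other alternative called it.

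Aln, listed as 1810037I17Rik, which encodes the widely expressed pump peptide another-regulin, averaged 24.8 ± 3.18 CPM in MP and 25.4 ± 3.73 CPM in Ctrl (SD, n = 3 each). The difference was -0.04 ± 0.16 on the log2 scale (SE, 95% interval -0.40 to 0.33, edgeR adjusted p = 0.923), and it turned positive with scaling by library totals and without some libraries. Strit1 had 6, 1 and 4 counts in MP replicates 1, 2 and 3 and 5, 4 and 8 in Ctrl. Smim6, which encodes the epithelial peptide endoregulin, had 5, 3 and 5 counts in MP and 8, 6 and 4 in Ctrl. Neither passed the filter, so no difference was detectable at this depth.

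The balance between sarcolipin and myoregulin RNA differed between the groups in every library. Sln made up 60.0%, 77.6% and 78.2% of Sln plus Mrln FPKM in MP replicates 1, 2 and 3. It made up 3.98%, 5.45% and 4.45% in Ctrl replicates 1, 2 and 3. The sum of both was not ordered by group, at 25.1, 109 and 102 FPKM in MP and 34.7, 40.7 and 42.4 FPKM in Ctrl, since MP replicate 1 had the lowest sum of all. Mrln stood at 1.90, 2.80 and 2.81 FPKM per 1000 Atp2a1 FPKM in MP and at 4.88, 4.42 and 4.08 in Ctrl.

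**Figure D2:**
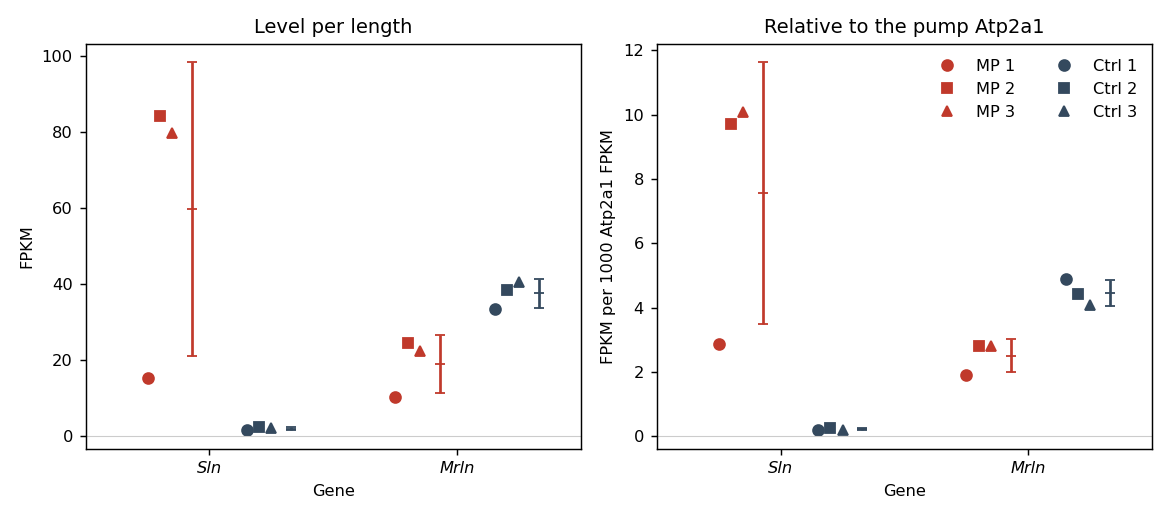
Sln and Mrln by library as FPKM (left) and as FPKM per 1000 Atp2a1 FPKM (right), with the mean and SD of 3 libraries beside the points and MP left of Ctrl. Sln is the higher of the pair in all 3 MP libraries (15.1 to 84.2 FPKM against 10.1 to 24.3 for Mrln) and the lower in all 3 Ctrl libraries (1.38 to 2.22 against 33.3 to 40.6).

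The pumps themselves overlapped between the groups. Atp2a1 (ENSMUSG00000030730, chromosome 7, 126445858 to 126463108), the fast-fibre pump SERCA1, had 18537, 30146 and 27327 CPM in MP replicates 1, 2 and 3, and 23920, 30353 and 34481 CPM in Ctrl replicates 1, 2 and 3. MP replicate 1 was the lowest of the 6. For Atp2a1 the log2 fold change was -0.22 ± 0.65 (SE), and its wide 95% interval, -1.74 to 1.29, holds large differences of either sign. By mean FPKM Atp2a1 ranked 6 in MP and 7 in Ctrl among all genes tested. The antisense neighbour Rabep2 shares 21.9% of its exonic bases.

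Atp2a2 (ENSMUSG00000029467, chromosome 5, 122453513 to 122502225), the pump SERCA2 of slow fibres, heart and many other cells, had 300, 249 and 382 CPM in MP and 281, 261 and 394 CPM in Ctrl. The groups covered nearly the same range, with replicate 3 the highest in each. MP and Ctrl differed by -0.01 ± 0.22 on the log2 scale (SE, 95% interval -0.51 to 0.49). Atp2a2 made up 0.916%, 0.470% and 0.792% of the FPKM of both pumps in MP and 0.667%, 0.490% and 0.650% in Ctrl, so nearly all pump RNA was of the fast type in every library. Atp2a3, the SERCA3 gene of blood and endothelial cells, averaged 22.7 ± 4.78 CPM in MP and 28.7 ± 28.5 CPM in Ctrl (SD, n = 3 each). Ctrl replicate 1, the library with the B cell and T cell RNA, had 61.4 CPM of it, and the part of those cells was not tested.

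Casq1 (ENSMUSG00000007122, chromosome 1, 172209894 to 172219868), the calsequestrin of fast muscle, was the only tested gene of the set other than Sln whose groups did not overlap. It had 17672, 18214 and 16884 counts in MP replicates 1, 2 and 3 and 29190, 27831 and 29210 counts in Ctrl replicates 1, 2 and 3. As CPM these were 730.2, 883 and 676 in MP and 1217.5, 1315 and 1346 in Ctrl. The spread within each group was small beside the gap between them, with a coefficient of variation of 14.0% in MP and 5.20% in Ctrl. Casq1 differed by -0.76 ± 0.18 on the log2 scale (SE, 95% interval -1.17 to -0.35), a fold of 0.590, and edgeR did not call it with all 6 libraries. DESeq2, which called 7.31% of the genes it tested, called Casq1 as lower. So did edgeR without Ctrl replicate 1, which called 13.1%. The members were chosen with these differences in view, so nothing is read from these calls. With all libraries in, 2 of 9 tested members did not overlap between the groups, beside 27.4% of all genes tested (13.8% higher and 13.6% lower). An antisense RNA, Gm17224, covers 8% of the exonic bases of Casq1.

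Casq2 (ENSMUSG00000027861, chromosome 3, 102086415 to 102146514), the calsequestrin of heart and slow fibres, had 32.8, 15.0 and 19.9 CPM in MP and 14.2, 16.5 and 21.9 CPM in Ctrl. Only MP replicate 1 lay above the range of Ctrl. The Casq2 log2 fold change was 0.36 ± 0.30 with all libraries (SE, 95% interval -0.33 to 1.06) and 0.01 without MP replicate 1. The Casq2 share of calsequestrin FPKM was 3.10%, 1.20% and 2.05% in MP, and 0.826%, 0.889% and 1.15% in Ctrl. The groups did not overlap in this share, with MP replicate 2 just above Ctrl replicate 3. Casq1 makes up most of the sum that the share is taken of. Casq1 was lower in MP without overlap, while Casq2 itself overlapped between the groups.

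The other luminal proteins showed smaller differences. Hrc (ENSMUSG00000038239, chromosome 7, 45335290 to 45338974), a histidine-rich calcium-binding protein that also binds triadin, had 667, 637 and 596 CPM in MP and 638, 732 and 799 CPM in Ctrl, overlapping by a single Ctrl library. For Hrc the log2 fold change was -0.19 ± 0.15 (SE, 95% interval -0.55 to 0.16). Srl (ENSMUSG00000022519, chromosome 16, 4480216 to 4541816), which encodes sarcalumenin, a calcium-binding glycoprotein that associates with the pump, had 1645, 1294 and 1209 CPM in MP and 1130, 1422 and 1399 CPM in Ctrl. MP replicate 1 was the highest of the 6 and Ctrl replicate 1 the lowest. Srl differed by 0.07 ± 0.21 on the log2 scale (SE, 95% interval -0.41 to 0.55), and by -0.06 without MP replicate 1.

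Ryr1 (ENSMUSG00000030592, chromosome 7, 29003344 to 29125179), the release channel, had 3350, 4184 and 4044 CPM in MP and 4165, 4576 and 5582 CPM in Ctrl. The groups met at MP replicate 2 and Ctrl replicate 1. Between MP and Ctrl, Ryr1 differed by -0.31 ± 0.29 on the log2 scale (SE, 95% interval -0.97 to 0.36). Set against the pump, Ryr1 stood at 24.8 ± 3.51 FPKM per 1000 Atp2a1 FPKM in MP and 25.8 ± 1.86 in Ctrl (SD, n = 3 each). There were 2.44, 2.36 and 1.87 Casq1 FPKM per Ryr1 FPKM in MP, each below the 3.27, 3.22 and 2.70 of Ctrl. Jph1 (ENSMUSG00000042686, chromosome 1, 16964560 to 17097889), which joins the reticulum to the transverse tubule, had 297, 344 and 377 CPM in MP and 339, 500.5 and 520 CPM in Ctrl. Ctrl replicate 1 lay among the MP libraries and the other Ctrl libraries above them. For Jph1 the log2 fold change was -0.42 ± 0.19 (SE, 95% interval -0.87 to 0.04), and -0.59 without Ctrl replicate 1. In the fit without Ctrl replicate 1 edgeR called 3 members, Sln higher and Casq1 and Jph1 lower. Of all genes it called 13.1% (6.08% higher and 6.99% lower). Nothing is read from that count of members, which were chosen with these differences in view.

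**Figure D3:**
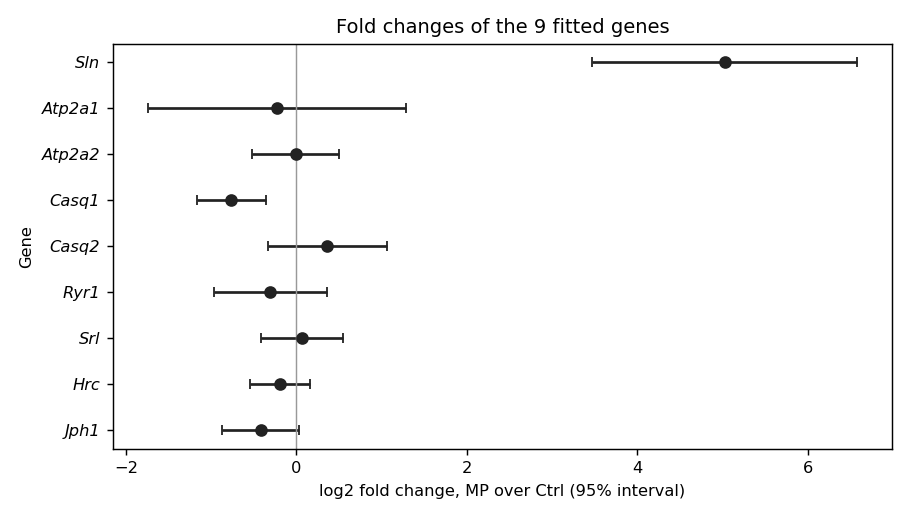
Fitted log2 fold changes, MP over Ctrl, with 95% intervals, for the 9 genes that passed the filter on low counts. The intervals of Sln (3.47 to 6.58) and Casq1 (-1.17 to -0.35) lie to either side of 0, and the other 7 include it. These genes were chosen with the differences in view, so nothing is read from which intervals include 0. In edgeR's test 3121 of all 14973 genes had an unadjusted p under 0.05.

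Of the 9 members tested, 3 had a positive and 6 a negative log2 fold change, with a median of -0.19, where the median of all 14973 genes was -0.03. In order of mean FPKM, Atp2a1 stood first in both groups, at 7285 ± 1779 FPKM in MP and 8492 ± 1561 FPKM in Ctrl, and Casq1 second, at 391 ± 54.8 FPKM in MP and 661 ± 37.1 FPKM in Ctrl (SD, n = 3 each). Below them Srl, Hrc and Ryr1 followed in MP (259, 246 and 177 FPKM) and Hrc, Srl and Ryr1 in Ctrl (281, 247 and 218 FPKM). Srl and Hrc overlapped over the libraries in both groups, and Srl and Ryr1 overlapped in Ctrl, so their order is not resolved. Sln was the most variable of the 9 tested genes in MP, with a coefficient of variation of 64.6% against 22.8% in Ctrl, and Hrc the least variable in MP at 5.65%.

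A further 91 calcium handling genes in 6 lists show the surroundings of the set, and 84 of them passed the filter. In edgeR's test over all genes 1 was called higher and 1 lower, and 37 had a positive and 47 a negative log2 fold change, with a median of -0.04. That is 2 of 84, where 1.3% of all genes were called.

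**Figure D4:**
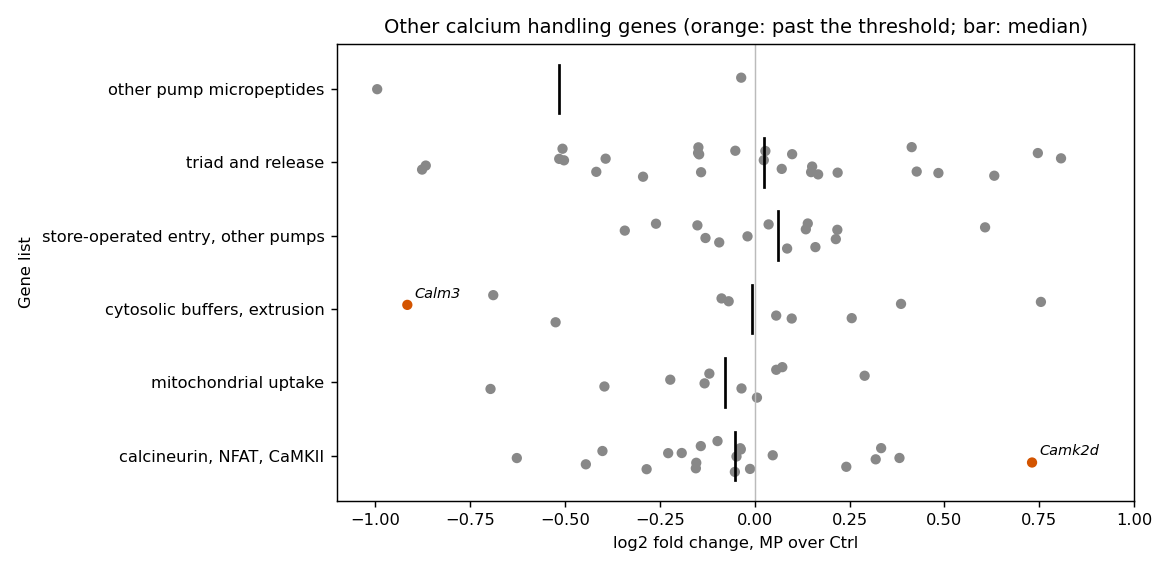
Log2 fold changes, MP over Ctrl, of the 84 tested genes in 6 calcium handling lists, one point per gene (vertical spread is only for legibility), a bar at each median, and genes past the threshold in orange. The medians of the 5 larger lists lie between -0.08 and 0.06, and Calm3 and Camk2d are the 2 genes past the threshold.

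Among 10 tested genes of cytosolic buffering and extrusion, Calm3, which encodes the calcium sensor calmodulin, fell. Calm3 (ENSMUSG00000019370, chromosome 7, 16915379 to 16924114) had 147, 172 and 164 CPM in MP replicates 1, 2 and 3, against 296, 283 and 333 CPM in Ctrl replicates 1, 2 and 3. All 3 MP libraries lay below all 3 Ctrl libraries. Calm3 differed by -0.92 ± 0.13 on the log2 scale (SE, 95% interval -1.21 to -0.62, edgeR adjusted p = 0.0287). Calm2, which also encodes calmodulin, stood at 0.10 ± 0.32 on the log2 scale (SE, edgeR adjusted p = 0.891). Pvalb, the parvalbumin that buffers calcium in fast fibres, had 3036, 8213 and 6690 CPM in MP and 7115, 9611 and 9079 CPM in Ctrl. MP replicate 1 had by far the lowest Pvalb, and the log2 fold change was -0.52 ± 0.46 (SE).

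Among 21 genes of calcineurin, NFAT and CaMKII signalling, through which calcium acts on transcription, Camk2d rose. Camk2d (ENSMUSG00000053819, chromosome 3, 126596302 to 126846326), the delta subunit of calmodulin-dependent kinase II, had 62.4, 58.2 and 57.0 CPM in MP and 31.0, 37.6 and 38.5 CPM in Ctrl. All 3 MP libraries lay above all 3 Ctrl libraries. Camk2d differed by 0.73 ± 0.12 on the log2 scale (SE, 95% interval 0.44 to 1.02, edgeR adjusted p = 0.0444). The calls of Calm3 and Camk2d were kept without Ctrl replicate 1 (edgeR adjusted p = 0.0109 and 0.0173) and lost without each of the other 5 libraries, where adjusted p ran from 0.0781 to 0.162 for Calm3 and from 0.108 to 0.188 for Camk2d. Over all genes, the fits without each of those 5 libraries called 0 to 54, and the fit without Ctrl replicate 1 called 1956. Calm3 was also lost by limma on log2(FPKM + 0.1) (adjusted p = 0.0555). Camk2d was lost by edgeR with no filter (adjusted p = 0.0776), by limma-voom (0.0501) and by limma on log2(FPKM + 1) and log2(FPKM + 0.1) (0.0658 and 0.0850). The calcineurin catalytic gene Ppp3ca and the calcineurin-responsive gene Rcan1 had log2 fold changes of -0.28 and -0.04, and neither passed. Ppp3cb, also a calcineurin catalytic gene, and Myoz1 were lower in MP without overlap. They differed by -0.44 ± 0.15 and -0.63 ± 0.23 (SE, edgeR adjusted p = 0.173 and 0.184). DESeq2 called Myoz1, beside 7.31% of all genes, and edgeR without Ctrl replicate 1 called both, beside 13.1%. In this list 6 genes had a positive and 15 a negative log2 fold change. Without overlap, 1 of its genes was higher and 2 were lower, where 27.4% of all genes tested did not overlap.

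In the triad and release list 0 of 27 tested genes passed edgeR's threshold, and the median log2 fold change was 0.02. An unadjusted p under 0.05 was found for 11 of these 27 genes and for 3121 of all 14973 genes. The 2 with the smallest p were lower in all 3 MP libraries. Asph, whose products include the calsequestrin anchor junctin, had 115, 139 and 136 CPM in MP and 182, 269 and 261 CPM in Ctrl (log2 fold change -0.87 ± 0.18 SE, edgeR adjusted p = 0.0662). Jph2, the second junctophilin of muscle, had 280, 309 and 269 CPM in MP and 408, 635 and 532 CPM in Ctrl (-0.88 ± 0.18 SE, edgeR adjusted p = 0.0697). Both passed edgeR's threshold with scaling by library totals (adjusted p = 0.0425 for Asph and 0.0411 for Jph2) and without Ctrl replicate 1 (0.00706 and 0.0094). DESeq2, beside 7.31% of all genes, called 5 genes of this list: Asph, Jph2 and the calcium channel subunit Cacng6 lower, and the channel subunit Cacng1 and the inositol trisphosphate receptor Itpr1 higher. Trdn, triadin, which holds Casq1 to Ryr1, had 587, 834 and 781 CPM in MP and 841, 1255 and 1022 CPM in Ctrl, without overlap (-0.50 ± 0.22 SE, edgeR adjusted p = 0.242). Of the 27 tested genes, 4 were higher and 6 lower without overlap, where 27.4% of all genes tested did not overlap. Cacna1s, the voltage sensor that opens Ryr1, had a log2 fold change of 0.03 ± 0.20 (SE).

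Neither store-operated entry with the other reticulum pumps (14 tested) nor mitochondrial uptake (10 tested) had a gene past edgeR's threshold, and 0 and 1 of their genes had an unadjusted p under 0.05. DESeq2 called none of either list. Stim1, the calcium sensor of the store, averaged 242 ± 15.4 CPM in MP and 208 ± 17.9 CPM in Ctrl (SD, n = 3 each, log2 fold change 0.22 ± 0.12 SE, edgeR adjusted p = 0.348). Atp2c1, a Golgi calcium pump, had a log2 fold change of -0.26 ± 0.14 (SE, edgeR adjusted p = 0.330). In the mitochondrial list the sodium-calcium exchanger Slc8b1 was at 0.29 ± 0.12 (SE, edgeR adjusted p = 0.224) and the outer membrane channel Vdac1 at -0.40 ± 0.19 (SE, edgeR adjusted p = 0.276). Mcu, the pore of the uniporter, averaged 24.5 ± 3.42 CPM in MP and 23.3 ± 2.49 CPM in Ctrl (SD, n = 3 each).

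The genes nearest to Sln over the 6 libraries were found by the root mean square difference in log2 CPM, each gene centred on its own mean, over 11200 protein-coding genes that averaged 2 CPM or more. Slc15a5, an orphan member of the oligopeptide transporter family, was nearest, at 0.72. It was followed by Spns3, a member of the spinster transporter family, at 0.90, Ttc25, a gene of cilia assembly, at 0.93, Smoc1, a secreted matrix protein, at 1.15, and Aacs, a cytosolic acetoacetate ligase, at 1.35. All 5, like Sln, had their lowest MP value in replicate 1. Spns3 had the widest spread within MP, at 1.65, 26.1 and 17.2 CPM in MP replicates 1, 2 and 3 and 1.21, 0.851 and 0.415 CPM in Ctrl replicates 1, 2 and 3. With libraries in only 2 groups, a gene comes out near to Sln if its group difference is about as large. A lower value in MP replicate 1 also brings a gene nearer, so the choice itself favours that shared trait. The list describes these libraries only.

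**Figure D5:**
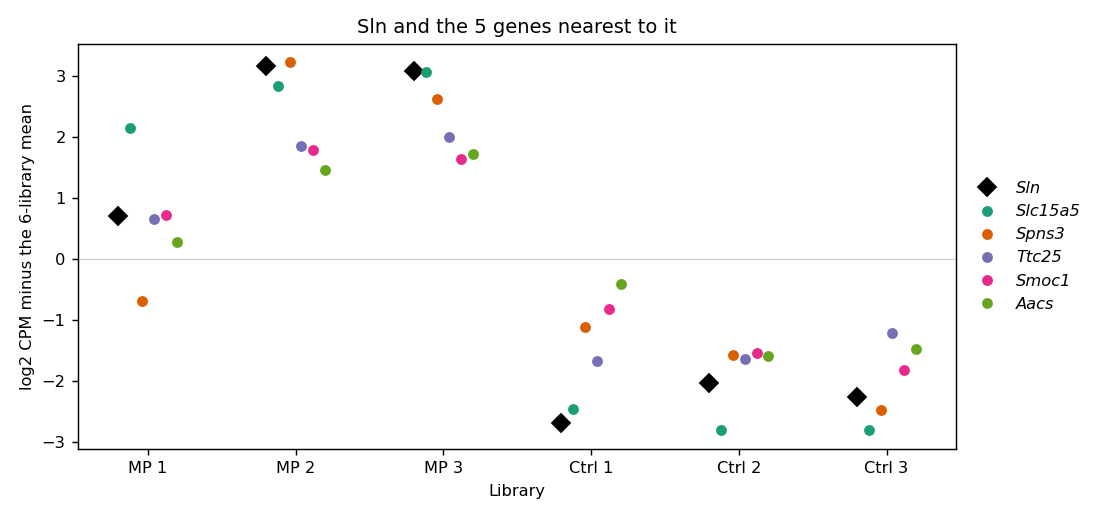
Log2 CPM minus the 6-library mean for Sln (diamond) and the 5 nearest genes (circles), by library. Sln sits at 0.71 in MP replicate 1, 3.17 and 3.09 in MP replicates 2 and 3, and between -2.68 and -2.03 in Ctrl. All 5 genes also have their lowest MP value in replicate 1, between -0.69 for Spns3 and 2.14 for Slc15a5. The choice by nearness to Sln favours this.

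Sln RNA can also come from other fibre types and from heart, so markers of these were summed. In bulk tissue a change in the number of such cells and in RNA per cell cannot be told apart. The 8 slow fibre genes summed to 703 to 1078 CPM in MP and to 905 to 1318 CPM in Ctrl, overlapping, and none was called. Of the 8 heart genes Myl7, Nppb and Mybpc3 had 0 counts in every library, and Nppa, a defining gene of the atrium, had at most 0.0801 CPM in MP and 0.138 CPM in Ctrl. The heart genes summed to 8.88 to 12.6 CPM in MP and to 12.95 to 19.8 CPM in Ctrl, without overlap. Myl4 was the largest part of this sum in every library, at 3.80 to 6.35 CPM in MP and 7.17 to 11.3 CPM in Ctrl. It was not called, and the lower-count Myh6 and Tnnt2 overlapped between the groups. The 8 genes of developing, regenerating or denervated fibres summed to 68.8 to 78.4 CPM in MP and to 54.9 to 64.7 CPM in Ctrl. These sums did not overlap, and none of the 7 genes tested was called. Chrna1, a subunit of the muscle acetylcholine receptor, stood at 25.3 to 31.6 CPM in MP and 15.3 to 18.6 CPM in Ctrl. Ncam1 (6.50 to 10.5 CPM in MP, 3.25 to 5.07 CPM in Ctrl) was also higher without overlap. So was Runx1 (8.97 to 16.1 CPM in MP, 6.45 to 8.47 CPM in Ctrl). Myog, myogenin, went the opposite way, at 4.75 to 7.02 CPM in MP and 10.3 to 21.8 CPM in Ctrl. Myh3, Myh8 and Myod1 overlapped between the groups. Of all genes tested, 27.4% did not overlap. The 5 satellite cell genes summed to 36.0 to 38.0 CPM in MP and to 18.5 to 33.6 CPM in Ctrl, without overlap. Calcr was called higher, at 1.40 to 1.79 CPM in MP and 0.331 to 0.415 CPM in Ctrl. Chodl and Myf5 were higher without overlap and not called, while Pax7 and Vcam1 overlapped. Vcam1 had 17.5 CPM in Ctrl replicate 1, against 2.41 and 3.00 CPM in Ctrl replicates 2 and 3. Sums for smooth muscle, fat, Schwann cells and blood overlapped between the groups. The part of these lists in the Sln difference was not tested.

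MP replicate 1, the MP library with the least Sln, also differed from the other MP libraries in fibre and vessel genes. It had 9413 CPM of Myh1, the fast IIX myosin, and 29055 CPM of Myh4, the fast IIB myosin, where MP replicates 2 and 3 had 2811 and 3082 CPM of Myh1 and 50481 and 47546 CPM of Myh4. Its 5 endothelial genes summed to 518 CPM, against 265 and 287 CPM in the other MP libraries and 190.4 to 280.1 CPM in Ctrl. Casq2 and Srl were highest and Atp2a1, Mrln and Pvalb lowest in this library. The part of these differences in its Sln level was not tested.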

How the data were processed

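The authors deposited whole-number read counts per Ensembl gene and FPKM values for 6 gastrocnemius libraries, per the file headers. The submitters' processing notes name HISAT2 2.0.5, featureCounts 1.5.0-p3 and GRCm38, with no role or order; the annotation and the use of strand in counting are not given there. From the values, the deposited FPKM values are counts per length, scaled by a library size built from median-of-ratios size factors. Groups came from sample titles. Counts were tested with edgeR 4.0.16 (R 4.3.3): TMM scaling, filterByExpr, quasi-likelihood test, group as the only term, Benjamini-Hochberg adjustment over 14973 genes, threshold 0.05, two-sided. CPM values use TMM library sizes. Each SE was derived from the F statistic of its log2 fold change. Alternatives used DESeq2 1.42.0, limma 3.58.1, other scalings and filters, left-out libraries and a replicate block. The steps were tested on simulated counts. Errors after ± are SDs of 3 libraries, or SEs where so marked. A floor of 3 counts covers counting error only.

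The 10 members, the lists and the tests were chosen with earlier results of these data known, and no list was tested as a set. Named outside the members were, from each list, the genes that passed (at most 4), otherwise those 2 of lowest p, and the 5 genes nearest to Sln. Calm2, Pvalb, Trdn, Cacna1s, Cacng1, Cacng6, Itpr1, Ppp3ca, Ppp3cb, Rcan1, Myoz1, Mcu, Atp2a3, Strit1 and Smim6 were named after their values were seen. So were Tnnc2, Tnnt3, Tnni2, Orai2, Itpr3, Calcr, Chodl, Myf5, Pax7, Vcam1, Chrna1, Ncam1, Runx1, Myog, Myh3, Myh8, Myod1, Myl4, Myh6, Tnnt2, Myh1 and the fibre markers. Exon overlaps and reading frames were read from GENCODE M21 (GRCm38), whose starts and ends equal the deposited ones for all 10 members. Synonyms (Strit1, Aln) are those of RefSeq, GRCm38.p6.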

Additional observations from a re-analysis of the deposited data

How the results depend on the processing

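The count of genes called, 194 by edgeR with all 6 libraries, was 124 with no filter, 1065 by DESeq2, 96 and 98 by limma on log2(FPKM + 1) and log2(FPKM + 0.1), and 0 to 1956 when each library was left out, 0 without Ctrl replicate 3 (2116 genes at an unadjusted p under 0.05) and 1956 without Ctrl replicate 1. Scaling by library totals gave 205 higher and 54 lower, 79.2% higher in place of 60.8%, and gave all tested genes a median log2 fold change of 0.12 in place of -0.03. The count of members called, 1, was 2 by DESeq2 and 0 by limma-voom and by limma on log2(FPKM + 1). It was 0 to 3 when each library was left out, 0 without MP replicate 2, MP replicate 3, Ctrl replicate 2 or Ctrl replicate 3. Nothing is read from these counts, since the members were chosen with these differences in view. The count of other calcium handling genes called, 2, was 4 with scaling by library totals, 1 with no filter, 11 by DESeq2, 1 by limma-voom and by limma on log2(FPKM + 1), 0 by limma on log2(FPKM + 0.1) (16 at an unadjusted p under 0.05), and 0 to 15 when each library was left out, 15 without Ctrl replicate 1 and 0 without any other (12 to 16 at an unadjusted p under 0.05). With scaling by library totals the log2 fold changes of Casq1 and Hrc were -0.61 and -0.03. That of Aln turned to 0.12 with scaling by library totals, and lay between -0.13 and 0.091 when each library was left out, positive without MP replicate 2 (0.011), MP replicate 3 (0.022) and Ctrl replicate 2 (0.091). The cause of these changes was not tested.

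The labels state no pairing by replicate number, and 3 libraries per group are too few to settle it from the values. The deviations of same-numbered libraries from their group means correlated at -0.02, -0.17 and 0.16 over the tested genes, and MP replicate 1 correlated best with Ctrl replicate 2. With the replicate block edgeR called 5 genes, 0 members and 0 of the other calcium handling genes (20 at an unadjusted p under 0.05). The log2 fold change of Sln was then 4.74, and the adjusted p 0.0870 for Calm3 and 0.101 for Camk2d. Depth limits Pln, Strit1 and Smim6, which had between 1 and 29 counts per library.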

Other observations

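Tnnc2, the troponin C gene of fast fibres, was listed at 20, 9 and 13 counts in MP replicates 1, 2 and 3 and at 12, 13 and 11 counts in Ctrl, while its partners Tnnt3 and Tnni2 stood at 10374 to 11797 CPM and 5661 to 6488 CPM in MP, and at 11881 to 20152 CPM and 6232 to 9274 CPM in Ctrl.

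Orai2 and Itpr3, members of the store-operated entry and release lists, had 15.0 and 28.0 CPM in Ctrl replicate 1, against 0.898 to 1.34 CPM and 6.24 to 6.55 CPM in the other Ctrl libraries. In MP they had 6.69 to 10.6 CPM and 9.21 to 13.6 CPM. Without Ctrl replicate 1 edgeR called both, where it called neither with all 6 libraries. The fit without Ctrl replicate 1 called 13.1% of all genes tested.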
